A study of Mus musculus with 24 samples.

Results

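The comparison set wild type mouse embryonic fibroblasts given tunicamycin for 8 h against wild type fibroblasts left untreated, and its members were the 8 arrays whose titles name those groups, 4 per group with letters A to D, out of 24 arrays in the series. Genes were read from every probe set with 1 gene symbol, 10833 of 12488 probe sets, which stood for 8251 genes. All cells of both groups were primary fibroblasts with CHOP intact. The treated cells received tunicamycin at 2 µg/ml, while the untreated group has no solvent and no time in the labels, so that a change after tunicamycin cannot be told apart from a change with time or handling. Passage 3 is stated for untreated arrays A, B and C only. The labels do not state whether replicate arrays stem from independent cultures. If they do not, p-values reflect technical spread among these arrays. Wild type cells at 4 h with the same dose (4 arrays) and CHOP-/- cells untreated and at 8 h (4 arrays each) were used where named. The question was what the late response to stress of the endoplasmic reticulum (ER) holds in cells that can make CHOP.

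Tunicamycin blocks the first step of N-linked glycosylation, so that newly made glycoproteins fail to fold in the ER. Sensors in the ER membrane then start the unfolded protein response. ATF6 and the IRE1-XBP1 branch raise genes of folding and degradation through ER stress response elements in promoters, and PERK slows translation while favouring ATF4, which in turn raises amino acid genes and the transcription factor CHOP, encoded by Ddit3.

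Each array's median signal lay between 51.8 and 65.8. The median correlation of an array with the others of its group was 0.953 to 0.971 in the 8 arrays, so none stood apart by these measures. Of 19 fibroblast markers on the array, 2 stayed under a signal of 33.7 on all 8 arrays, and the summed signal of the 19 was 46976.5 to 55284.5 untreated and 37533.5 to 48220.7 at 8 h. Of the fibroblast markers tested, 3 of 17 fell (S100a4, Pdgfrb and Col3a1) and 14 did not pass, beside 7.22% of all genes tested that fell, and 6 fell with arrays of the same letter as a block. In bulk RNA fewer cells of a type and less RNA per cell cannot be told apart. Many markers of other cell types were dim, with 7 of 12 epithelial, 5 of 9 endothelial, 10 of 23 muscle and 6 of 18 leukocyte members under that signal on all 8 arrays. The summed leukocyte markers were uneven between arrays of a group, from 813.3 to 4632.6 untreated and from 709.9 to 4256.6 at 8 h. The summed muscle markers ranged from 4227.1 to 5735.0 untreated and from 2682.2 to 4477.5 at 8 h, and the neural ones from 3391.2 to 4734.6 and from 2580.7 to 3732.6, so both overlapped. Smooth muscle markers, 7 of 7 above that signal on at least 1 array, summed to 18714.9 to 22590.1 untreated and 16767.8 to 18710.6 at 8 h, without overlap, and 1 of 7 was called lower (0 without 8 h array B, untreated array C or untreated array D, and 2 with arrays of the same letter as a block). The part of these cell types in the results below was not tested.

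The promoters of the risen ER genes are shown first, because a short element recurred in them. The ER stress response element (ERSE) was searched as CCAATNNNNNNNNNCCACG on both strands of RefSeq windows in GRCm38.p6, from 250 bases before to 50 after each start. Capitals mark the element below, and bases read 5' to 3' on the strand of the gene. Among genes with a window, 37 of 27025 held it (0.137%), and 11 of the 4463 tested genes (0.246%). Of the genes with a window called higher at 8 h, 7 of 455 held it (1.54%), and 0 of 329 called lower. Within the 4 ER lists (chaperones, redox enzymes, degradation, translocation), 6 of 32 genes called higher with a window held it (18.8%). They were Hspa5 (chr2:34772005-34772063, plus strand), Hsp90b1 (chr10:86705618-86705676 and chr10:86705513-86705571, minus strand), Pdia6 (chr12:17266471-17266529, plus), Dnajc3 (chr14:118937807-118937865, plus), Creld2 (chr15:88819500-88819558, plus) and Ero1b (chr13:12565662-12565720, plus). The seventh was Zfp57. No share was taken for members of the ER lists that were not called, so the 18.8% does not separate being called from being in the lists. The tested genes with the element that were not called were Adcy3, Canx, Pan2 and Ptgdr2, chosen here after their values were seen, of which the chaperone gene Canx differed by 0.04 log2 (adjusted p = 0.939).
Hspa5: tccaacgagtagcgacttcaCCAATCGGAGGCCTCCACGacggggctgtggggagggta
Hsp90b1, distal: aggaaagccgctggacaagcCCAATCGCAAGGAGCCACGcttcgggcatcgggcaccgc
Hsp90b1, proximal: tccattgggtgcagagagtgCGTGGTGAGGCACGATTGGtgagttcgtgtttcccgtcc
Pdia6: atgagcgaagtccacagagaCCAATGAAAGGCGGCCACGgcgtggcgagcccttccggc
Dnajc3: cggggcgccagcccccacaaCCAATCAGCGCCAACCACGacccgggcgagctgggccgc
Creld2: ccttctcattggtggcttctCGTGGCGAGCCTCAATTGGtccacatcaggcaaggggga
Ero1b: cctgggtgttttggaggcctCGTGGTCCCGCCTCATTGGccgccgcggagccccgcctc

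A compact form of the element (ERSE-II), searched as ATTGG and CCACG with any base between them on both strands, was held by 12 of 27025 genes (0.0444%), 7 of 4463 tested genes, 5 of 455 called higher and 0 of 329 called lower. Those called higher were Herpud1 (chr8:94386357-94386407, plus strand), Dnajb11 (chr16:22857832-22857882, plus), Nucb1 (chr7:45510419-45510469, minus), Rcl1 (chr19:29101273-29101323, plus) and the splicing gene Rbm39, whose rise of 0.75 log2 on the probe set used turned to −0.06 as a mean of all its probe sets. These genes are shown for the element, chosen after their values were seen. The capitals mark the element. Matches are descriptions of letters, not shown binding sites.
Herpud1: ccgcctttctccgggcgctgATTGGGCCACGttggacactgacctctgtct
Dnajb11: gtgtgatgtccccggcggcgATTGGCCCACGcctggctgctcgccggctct
Nucb1: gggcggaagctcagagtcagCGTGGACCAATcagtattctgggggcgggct
Rcl1: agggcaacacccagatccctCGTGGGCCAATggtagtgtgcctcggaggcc

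Another sequence, the core of the C/EBP-ATF response element (CARE) that ATF4 binds with its partners, was searched as TGATGNAA on both strands. It is a short sequence and was common, in 4.51% of all genes with a window, 2.80% of the tested genes, 4.62% of those called higher and 3.95% of those called lower. Among genes called higher in the 4 lists of ATF4-related genes, 8 of 29 held it (27.6%): Asns, Gars, Iars, Nupr1, Slc1a4, Tars, Trib3 and Yars. No share was taken for members of these lists that were not called. The 27.6% therefore does not separate being called from being in the lists. The sequences are shown for Trib3 (chr2:152344019-152344066, minus strand), Nupr1 (chr7:126625553-126625600, minus), Asns (chr6:7693205-7693252, minus) and Slc1a4 (chr11:20332690-20332737, minus), with the element in capitals, because they stand for a pseudokinase, a stress regulator, an amino acid enzyme and a transporter.
Trib3: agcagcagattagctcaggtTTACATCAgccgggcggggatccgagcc
Nupr1: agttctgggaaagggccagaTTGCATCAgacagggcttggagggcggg
Asns: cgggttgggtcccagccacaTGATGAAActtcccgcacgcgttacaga
Slc1a4: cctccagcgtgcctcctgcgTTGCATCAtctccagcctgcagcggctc

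Of 5483 genes tested, limma called 936 at an adjusted p under 0.05 (17.1%). Of these, 540 rose (9.85%) while 396 fell (7.22%), and the called change reached 2-fold or more in 240 (4.38%). Counts of rises and falls in the gene lists below are to be read beside the 9.85% and 7.22%. The median change of all tested genes was −0.02 log2. Arrays of the groups did not overlap for 1153 genes (21.0%), of which 799 were also called. Risen genes made up 57.7% of the calls, or 68.0% where arrays were median-centred. Arrays of the same letter deviated together in the 2 groups, and with the letter as a block over these 8 arrays 1634 genes were called, 847 higher and 787 lower. With array weights the count was 1458.

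**Figure D1:**
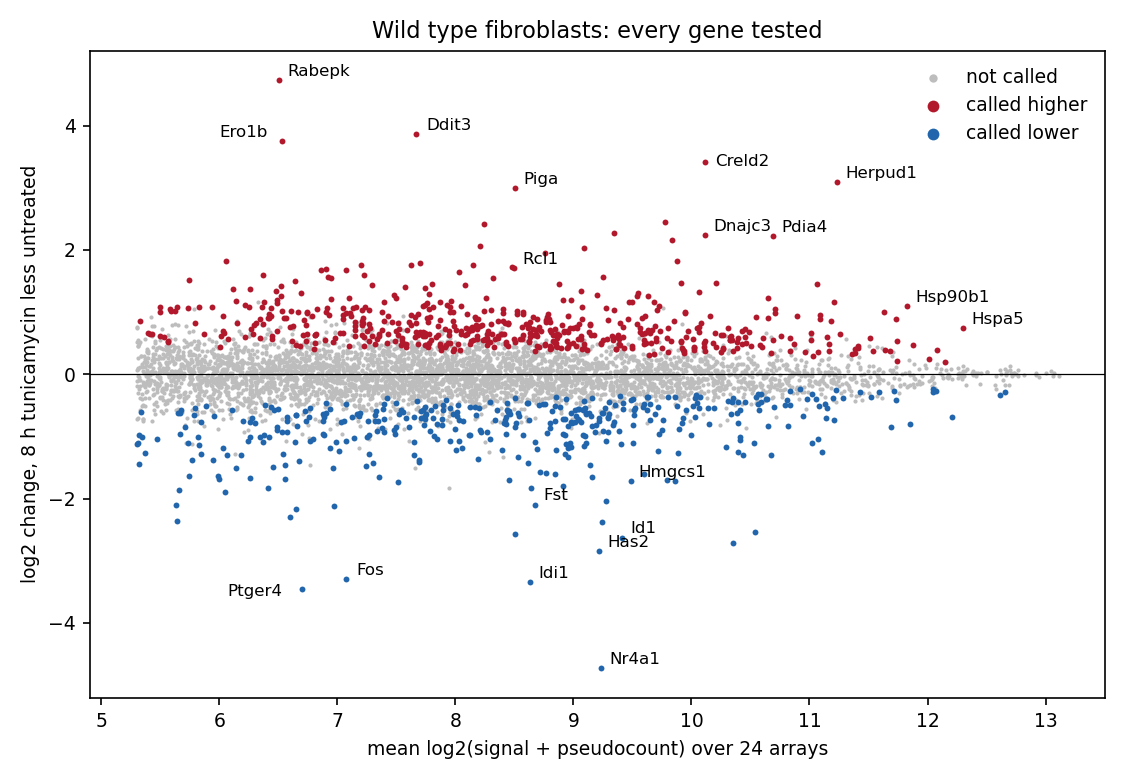
Each point is 1 of 5483 genes tested in wild type fibroblasts, placed by its mean log2 level over 24 arrays and its log2 change at 8 h of tunicamycin less untreated. Red points are the 540 genes called higher, blue points the 396 called lower, and Nr4a1 lies at −4.73. Genes under a signal of 33.7 in all arrays of 1 group, such as Rabepk, are placed at a fitted value that is no exact size.

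Among the sensors and transcription factors of the response, Ddit3 came first. Its signals were 296.2, 215.5, 437 and 249.9 in untreated arrays A to D and 3857, 4782.1, 4009.9 and 4883 at 8 h, so the groups were far apart. The rise was 3.87 log2 (SE 0.35, adjusted p = 3.46e-08). An exact two-sided permutation test of the group means gave p = 0.0286, the smallest that 4 arrays against 4 can give unpaired. It exchanged arrays regardless of letter, so the pairing of same-letter arrays described below was not taken into account. Transcripts of the sensors themselves rose as well. Atf6, which encodes the sensor that moves to the Golgi to be cleaved, went from 134.8, 87.7, 129.6 and 119.1 to 319.4, 285.3, 350.2 and 334.1, a rise of 1.40 log2 (SE 0.166, adjusted p = 2.24e-06). Eif2ak3, which encodes PERK, rose by 1.42 log2. For Xbp1 the arrays overlapped (1123.7 to 1412.1 untreated, 1283 to 1931.5 at 8 h), and its difference of 0.32 log2 was not called (adjusted p = 0.101), though it was with the letter as a block (adjusted p = 0.021). Atf3, an ATF4-driven repressor gene, spread from 207.4 to 954.6 in untreated arrays and differed by −0.05 log2 (adjusted p = 0.966).

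In the list of PERK and ATF4 feedback genes, 11 of 25 tested rose and 2 fell, or 4 fell with the letter as a block, with a median of 0.46 log2 against −0.02 over all genes. Both subunits that return eIF2α to its unphosphorylated state were measured, and they went opposite ways. Ppp1r15a, the stress-induced subunit GADD34, went from 286.2, 245.5, 383 and 261.3 to 1232.3, 1373.3, 1237.6 and 1098.8, a rise of 2.02 log2 (SE 0.197, adjusted p = 1.19e-07). Ppp1r15b, the constitutive subunit, went from 606.4, 546.3, 765.2 and 639.6 to 406.8, 353.3, 421.9 and 443.5 and fell by 0.67 log2 (SE 0.169, adjusted p = 0.00804). Neither pair of groups overlapped, and the Ppp1r15b call ended under median centring. Dusp1, a MAP kinase phosphatase gene, was the other fall in the list (−1.0 log2). Stc2, which encodes a secreted glycoprotein, stood at 46.1, 29.7, 36.7 and 33.4 untreated and at 123.9, 166.4, 108.4 and 89.8 at 8 h, a rise of 1.59 log2. Trib3 rose by 2.28 log2, Atf4 by 0.88 and Cebpg, which encodes a partner of ATF4, by 0.80.

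ER chaperones rose in 12 of 24 tested members and fell in 0 (median 0.39 log2). Hspa5, which encodes BiP, the main ER chaperone, read 3577.3, 4603.4, 4283.7 and 3683.2 untreated and 6224.2, 7016.6, 5878.8 and 6999.6 at 8 h, a rise of 0.74 log2 (SE 0.101, adjusted p = 1.55e-05). Genes of its partner proteins rose too. Dnajc3, a BiP co-chaperone also known as p58IPK, went from 387.3, 702.1, 591.1 and 455.6 to 2244.1, 2986.3, 2264.2 and 2615.7, a rise of 2.24 log2 (SE 0.241, adjusted p = 5.3e-07). Dnajb9 rose by 2.16 log2 on the probe set used and by 3.84 on its other one, and Dnajb11 by 1.25. Creld2, a folding factor gene, went from 284.3, 391.3, 319.4 and 352.8 to 3108.2, 3682.4, 3612.5 and 4465, with no overlap and a rise of 3.42 log2 (SE 0.251, adjusted p = 1.16e-09). Manf (1.46), Nucb2 (1.55) and Hsp90b1, the ER form of HSP90 (1.10), rose also, while Calu, Mlec, Rcn1 and Canx had differences between −0.14 and 0.04 log2 and were not called.

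The ER redox enzymes split. Of 17 tested, 6 rose and 0 fell, or 2 fell with the letter as a block, with a median of 0.10 log2. Ero1b, an oxidase that recharges protein disulfide isomerases, had signals of 21.5, 29.6, 18.9 and 24.6 untreated, all under the signal of 33.7 at which genes were filtered, and 324.9, 501.7, 331.4 and 408.8 at 8 h. It was therefore at least 11.6-fold higher (adjusted p = 7.34e-08). Its paralogue Ero1a went from 603.8, 611.3, 631.1 and 786.1 to 1346.7, 1401.6, 1500.8 and 1756.7, a rise of 1.16 log2. The disulfide isomerase genes Pdia4 (2.23), Pdia6 (1.16), Erp44 (0.67) and Erp29 (0.50) rose. Differences of P4hb, the classical disulfide isomerase (−0.05), Txndc5 (0.10), Tmx1 (−0.10) and Pdia3 (0.44) were not called.

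ER-associated degradation, which returns misfolded proteins to the cytosol, rose in 11 of 18 tested members with a median of 0.74 log2. Herpud1, a scaffold of the degradation complex, went from 493.6, 474.1, 670.2 and 564.8 to 4680.7, 5110.8, 3976 and 5532.2, a rise of 3.09 log2 (SE 0.107, adjusted p = 5.4e-16). Sel1l, the adaptor of the ubiquitin ligase HRD1, went from 264.5, 240.4, 231.6 and 309.5 to 1100.5, 1100.6, 908.2 and 1094, a rise of 1.96 log2 (SE 0.139, adjusted p = 7.31e-10). The mannosidase-like genes that mark glycoproteins for disposal rose together, Edem1 by 1.06, Edem2 by 0.93 and Edem3 by 0.85 log2. The channel genes Derl1 (1.06) and Derl2 (0.82) rose, as did Vcp (0.45) and Ufd1 (0.70) of the extracting ATPase. By contrast the proteasome and ubiquitin list had 1 rise and 1 fall among 45 tested members, beside 9.85% and 7.22% of all genes tested. The rise was Siah2, a ubiquitin ligase gene, by 1.43 log2, and the fall was Nedd4 (−0.32), a call lost without 8 h array C or D or untreated array A or C, under median centring, and with only these groups fitted, and turned to 0.03 as a mean of all its probe sets. With the letter as a block 6 of the 45 fell.

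At the entry of the ER, 9 of 22 translocation genes rose, or 14 with the letter as a block (median 0.40). They included both subunits of the signal recognition particle receptor, Srprb (1.07) and Srpr (0.59), the particle's Srp68 (0.74) and the translocon-associated Ssr1, Ssr2 and Ssr3 (0.39 to 0.52). At the exit, 12 of 50 ER to Golgi transport genes rose. Sec23b of the COPII coat went from 459.3, 556.2, 454.2 and 519.1 to 1164, 1118.3, 1169.5 and 1587.4, a rise of 1.30 log2 (SE 0.13, adjusted p = 1.82e-07), while its paralogue Sec23a differed by −0.04 and was not called. Vamp3, which serves endosomal recycling, was the member that fell, by 0.72 log2.

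Within N-glycosylation, 9 of 29 tested genes rose and 3 fell (median 0.18). Most of the risen ones work in the ER, among them Dpagt1, which encodes the enzyme that tunicamycin inhibits. Its signals were 265.9, 250.7, 245.6 and 247.1 untreated and 373.2, 416.8, 329.3 and 415.4 at 8 h, a rise of 0.56 log2 (SE 0.128, adjusted p = 0.00338). Alg2 (1.03), the oligosaccharyltransferase genes Ddost (0.57) and Rpn1 (0.49), the folding sensor Uggt1 (0.59) and, in the Golgi, Mgat2 (0.80) rose. All 3 that fell encode Golgi enzymes that add sialic acid or fucose. St6gal1, a sialyltransferase gene, went from 119.9, 70.4, 105.1 and 131.9 to 30.4, 31.2, 24.4 and 29.3, all under 33.7, and was at least 3.17-fold lower. Fut8 (−0.64) and St3gal1 (−0.58) fell as well, and the number of falls was 1 under median centring, 1 without 8 h array D and 6 with the letter as a block. Upstream, Gnpnat1 (0.98), Slc35b1 (0.94), Nans (0.68) and Gmppb (0.61) of nucleotide sugar supply rose among 16 tested. Piga, which starts glycosylphosphatidylinositol anchors, went from 80, 98.9, 121.5 and 103.9 to 790.9, 742.5, 903.8 and 951.1, a rise of 2.99 log2. Its second probe set rose by 2.71 log2, and among 10 genes of that pathway only Pign (0.66) was also called, in a count of 2 that was 1 without 8 h array A, C or D or untreated array A, B or C. Atp2a2, which encodes the calcium pump of the ER, rose by 1.30 log2.

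**Figure D2:**
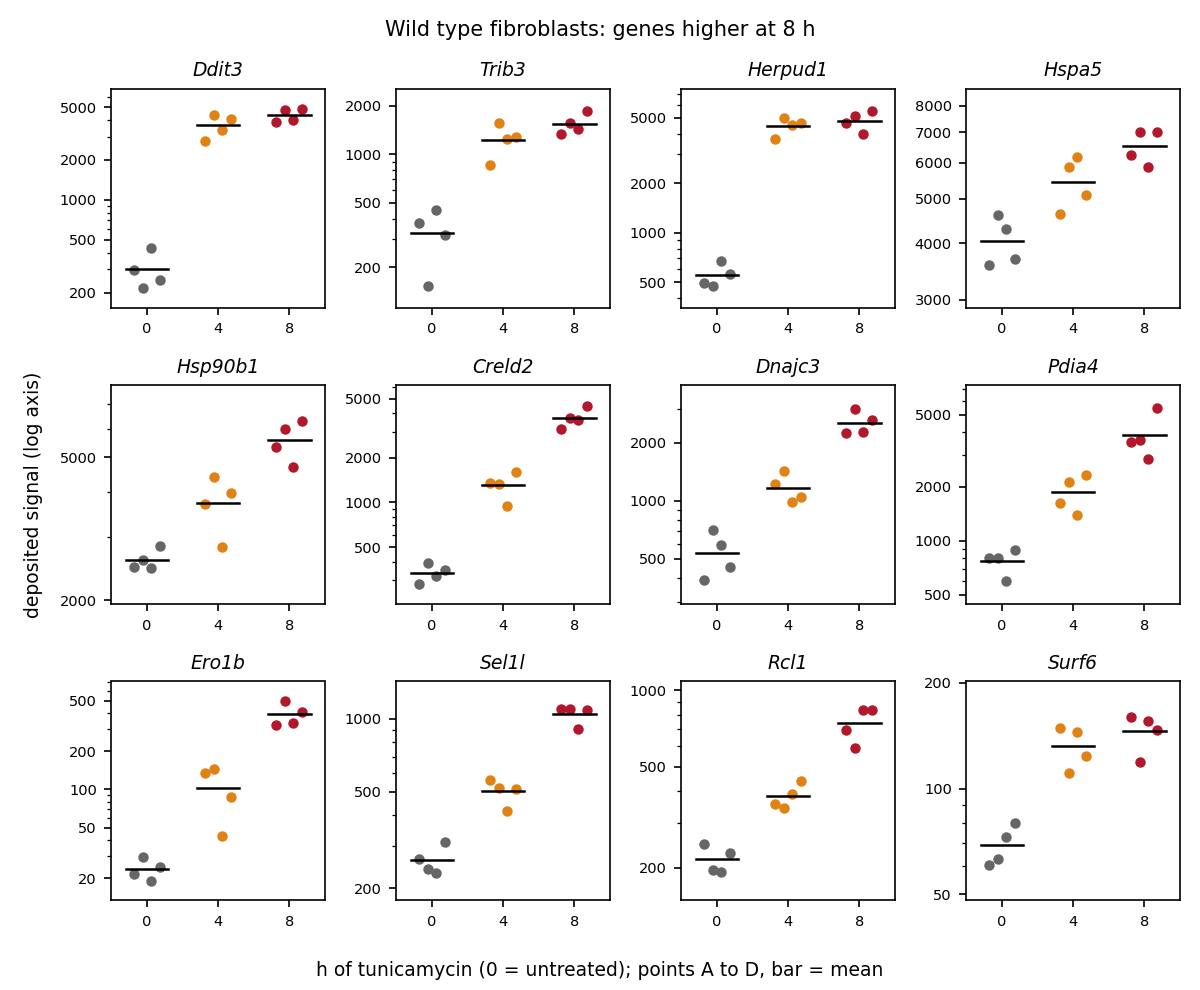
Deposited signal on a log axis of 12 genes higher at 8 h, with 4 wild type arrays per point in time (0 is untreated) and the mean as a bar. All arrays at 8 h lie above all untreated arrays in each gene. Herpud1 had means near 4486 at 4 h and 4825 at 8 h, while Creld2 and Sel1l were higher at 8 h than at 4 h.

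Genes of amino acid synthesis, transport and charging were next. Of the synthesis genes, 10 of 15 tested rose and 0 fell (median 0.46). Srm, a polyamine enzyme gene kept in that list, went from 762.5, 761.4, 549.2 and 902.8 to 1763.1, 1917.6, 1717.2 and 2002.2, a rise of 1.32 log2 (SE 0.16, adjusted p = 3.03e-06). Psph, the last enzyme of serine synthesis (1.05), Aldh18a1, the first of proline synthesis (0.99), and the branched-chain transaminase genes Bcat1 (0.66) and Bcat2 (0.92) rose. Asns went from 2747.1 to 3051.4 in untreated arrays and from 3418.9 to 4578.7 at 8 h, a rise of 0.46 log2. Of the transporters 5 of 11 rose, with both chains of the large neutral transporter among them, Slc7a5 by 1.22 and Slc3a2 by 1.0 log2. Among aminoacyl-tRNA synthetase genes 13 of 20 rose, led by Wars (634.1, 599.2, 600.3 and 751.7 untreated; 1766.4, 2065, 1542.6 and 1950.8 at 8 h; 1.47 log2). That count was 6 without untreated array B, 8 without untreated array A, 7 without 8 h array C and 8 without 8 h array D. Mars1 fell by 0.78 log2.

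Ribosome biogenesis genes act in the nucleolus to make and process ribosomal RNA. Of 32 tested, 20 were called higher and 0 lower, all 32 differences were above 0, and the median was 0.56 log2. The count was 12 without untreated array B and 13 without 8 h array C. Rcl1, a factor of early 18S rRNA processing, went from 247.7, 195.6, 191.9 and 227.9 to 697.8, 590.1, 837.2 and 832.5, a rise of 1.70 log2 (SE 0.134, adjusted p = 4.25e-09). Surf6, a nucleolar matrix protein gene, went from 60.5, 63.1, 72.6 and 80 to 160.2, 119, 155.9 and 146.8, a rise of 1.01 log2 (SE 0.149, adjusted p = 4.34e-05). Polr1a, the largest subunit of RNA polymerase I (0.92), Nolc1 (0.91), the snoRNP proteins Rrp9 (0.88), Nop56 (0.81) and Nop58 (0.75), and the methyltransferase Nop2 (0.82) rose. Among other proteins of the nucleolus, Npm1 rose by 0.24 and Fbl by 0.43, and Ncl differed by 0.36 without a call. Of 23 ribosomal protein genes, 0 were called by limma and 1 had an unadjusted p under 0.05, with differences between −0.11 and 0.36. That count was 1 under median centring or without untreated array D. Translation factors rose in 5 of 32 cases, beside 9.85% of all genes tested. The number was 12 with the letter as a block and 1 under median centring. The count ran from 2 to 6 when an array was left out, moved by 8 h arrays C and D and untreated array B. Among host genes of small nucleolar RNAs, Snhg5 rose by 2.42 and Snhg1 by 1.47 log2, while Gas5 (1.06) was not called.

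In the list of mitochondrial import and protein quality, 7 of 25 rose and 0 fell (median 0.22). Lonp1, the matrix protease, went from 437.6, 328.1, 488.2 and 381.5 to 847.1, 796.3, 780 and 1017, a rise of 1.04 log2 (SE 0.169, adjusted p = 0.000122). Import genes Timm9 (1.16), Tomm70a (0.90) and Tomm40 (0.46) rose, as did the matrix chaperone genes Hspa9 (0.55) and Dnaja3 (0.51), while Hspd1 (0.12) and Hspe1 (0.02) were not called. Respiratory chain genes had 0 rises and 5 falls among 56 (median −0.19), a share of falls near the 7.22% of all genes tested. The falls included Ndufb3 of complex I (−0.95) and Uqcrh of complex III (−0.78). The number of falls was 1 under median centring, 12 with the letter as a block, and 3 without 8 h array B or without untreated array C.

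Among cytosolic heat shock genes, which serve folding outside the ER, 6 of 33 fell and 2 rose (median −0.03). Of all genes tested, 7.22% fell and 9.85% rose. Dnajb4 went from 245.3, 271.6, 409.7 and 232.7 to 51.9, 80.9, 81.3 and 116.2 and fell by 1.74 log2 (SE 0.358, adjusted p = 0.00134). Dnajb1 fell by 0.58 log2. Hspa1b (−1.09) and its near-identical copy Hspa1a (−0.93) fell too. A probe set may read both, and the Hspa1b arrays overlapped (178.5 to 577.6 untreated, 137.1 to 199.2 at 8 h). The count of falls was 3 without 8 h array B, and the rises were 6 with the letter as a block and between 1 and 5 with an array left out, moved by 8 h arrays C and D and untreated arrays B and C. In the antioxidant list 4 of 33 rose and 2 fell (median −0.07), near the 9.85% and 7.22% of all genes tested. Among these calls Hmox1 (0.91) and Sqstm1 (0.86) rose and Gsr fell by 0.75 log2.

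Immediate-early genes answer growth signals within minutes, and many fell. Of 37 immediate-early genes tested, 22 fell and 2 rose, with a median of −1.01 log2. Nr4a1, an orphan nuclear receptor gene, went from 2813.2, 2316.3, 2819.2 and 2070.9 to 132.7, 93.9, 77.5 and 51.6, so that it fell by 4.73 log2 (SE 0.377, adjusted p = 4.9e-09). Fos read 945.1, 213, 914.6 and 163.5 untreated and 42.1, 48.5, 38.2 and 22.2 at 8 h. Its untreated arrays A and C were thus high and B and D low, all of them above the arrays at 8 h, and the change was −3.30 log2 (SE 0.655, adjusted p = 0.000975). Id1, a helix-loop-helix inhibitor gene and target of BMP signalling, went from 1400.4, 1953.1, 1744.5 and 1427.2 to 233, 177.4, 341.1 and 302.6, so that it fell by 2.63 log2 (SE 0.187, adjusted p = 7.31e-10). Egr2 (−2.37), Id2 (−1.80), Sgk1 (−1.72), Junb (−1.60), Jun (−1.36) and Id4 (−1.01) fell as well. The 2 that rose were Myc (0.83) and Mafk (0.42). The Myc call was lost without 8 h array A or C or untreated array B or D, and the Mafk call without 8 h array C or D or untreated array A, B or C.

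Of 21 MAP kinase feedback genes, which damp those signals, 5 fell, or 10 with the letter as a block, 1 rose and 15 were not called. Errfi1, an inhibitor of the EGF receptor, went from 3343.8, 2712.2, 3534.8 and 2293.3 to 590.3, 341.7, 561.9 and 301.8, so that it fell by 2.72 log2 (SE 0.422, adjusted p = 6.75e-05). Errfi1 was counted among the immediate-early genes too, as some genes stand in several lists. Dusp6, a phosphatase of ERK, fell by 1.13 log2. The rise was Socs1, by 0.64, a call lost without untreated array D. Among ligands and receptors of growth factors, 8 of 36 fell, or 14 with the block, and Csf1 rose by 0.54 log2. The prostaglandin receptor gene Ptger4 went from 355.3, 404.7, 325 and 235.1 to 26.2, 31.3, 26.7 and 13.2, all under 33.7, and was at least 9.79-fold lower. The tissue factor gene F3 (−2.53 log2), Edn1 (−2.12), Adm (−1.69) and Pdgfrb (−0.74) fell.

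In the TGF-beta, BMP and Wnt list 0 of 41 rose, or 1 with the letter as a block, and 11 fell (median −0.32). Fst, a secreted inhibitor of activin, went from 539.3, 561.6, 706.9 and 650.1 to 139.5, 91, 212.7 and 146.1, so that it fell by 2.10 log2 (SE 0.261, adjusted p = 4.38e-06). The ligand genes Tgfb3 (−1.17), Tgfb2 (−1.08) and Inhbb (−0.98), the receptor gene Bmpr1a (−0.77) and the inhibitor gene Smad7 (−0.71) fell. Id1 (−2.63), already counted among the immediate-early genes, was the lowest member of this list too. Tgfb1 (0.10) and Bmp4 (−0.36) were not called. Gas1, a membrane protein of the hedgehog pathway, fell by 2.17 log2.

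Cholesterol synthesis fell in 10 of 20 tested genes, and Mvd rose by 0.89 log2 (median −0.90). Idi1, the isopentenyl diphosphate isomerase gene, went from 990.8, 1060.7, 961.2 and 813.7 to 88.8, 128.4, 68.7 and 69.2, so that it fell by 3.35 log2 (SE 0.232, adjusted p = 6.11e-10). Hmgcs1, which acts just before the statin target, went from 1291.5, 1202.7, 1362.1 and 868.8 to 336.5, 450, 385.9 and 255.1, so that it fell by 1.72 log2. Calls ran down the pathway, with Fdft1 (−1.10), Sqle (−1.26), Lss (−0.93), Cyp51 (−1.08), Msmo1 (−1.61), Nsdhl (−1.33), Hsd17b7 (−1.14) and Dhcr7 (−1.04). Srebf1 (−0.35) was not called. In other lipid metabolism 10 of 36 fell, among them Elovl6 (−1.68), which elongates fatty acids, and Acadl (−1.51). That number was 4 under median centring, and 6 without 8 h array C, 8 h array D or untreated array A. The first enzyme of phosphatidylcholine synthesis from choline, Chka (1.07), rose, while the next, Pcyt1a, fell by 0.64 log2. The Pcyt1a call was lost under median centring, as a mean of all its probe sets and without 8 h array D. Its other probe set gave −0.29 log2 and was not called.

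**Figure D3:**
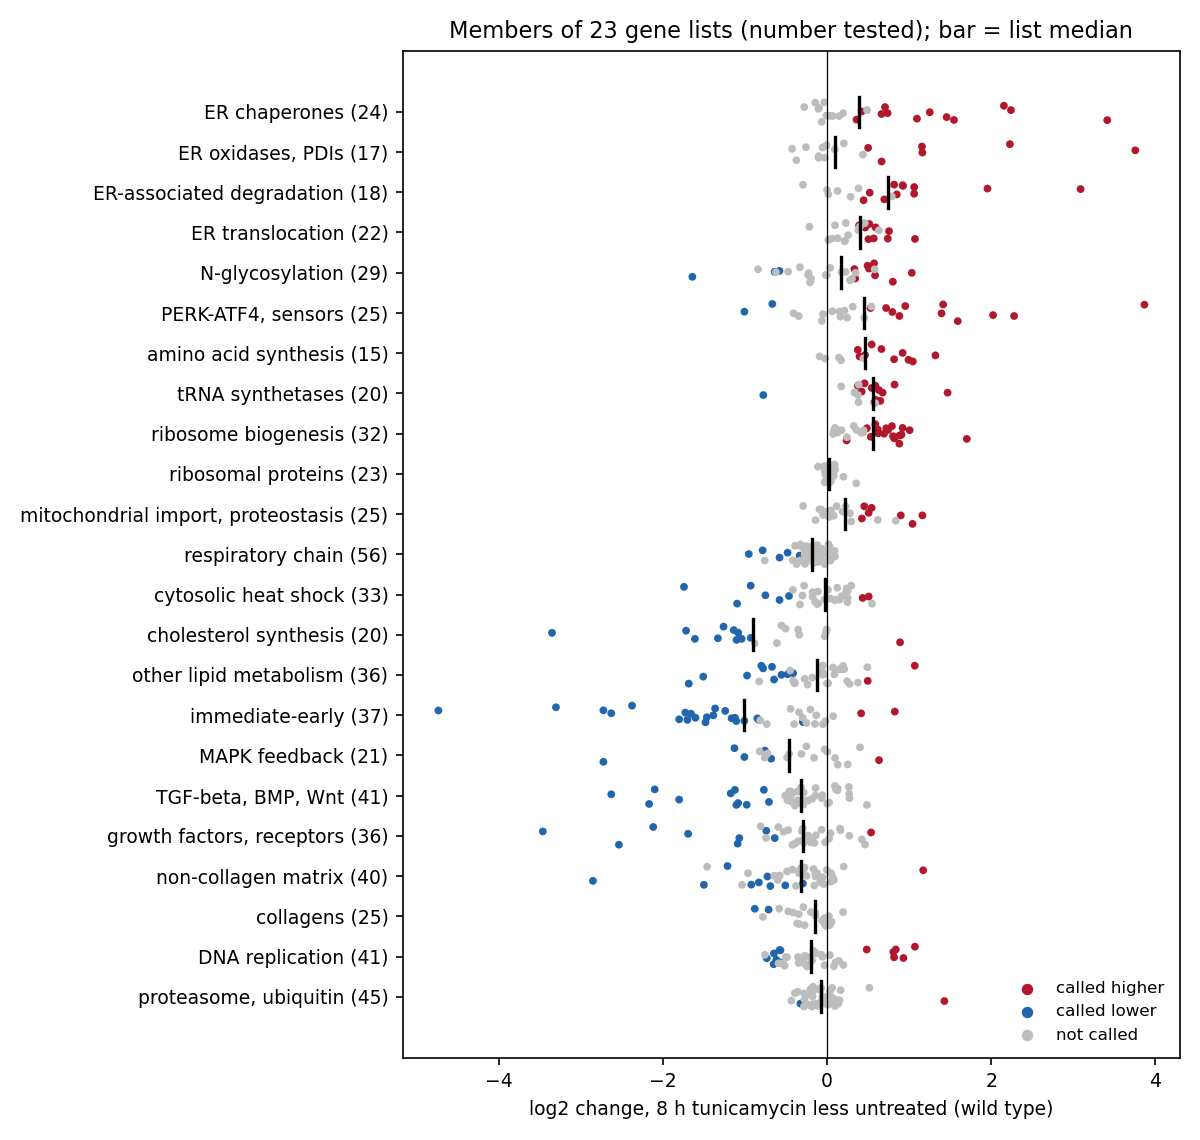
Log2 change at 8 h less untreated of each tested member of 23 gene lists, with the number tested in brackets, called members in red or blue and the list median as a bar. All 32 ribosome biogenesis genes lie above 0 while the 23 ribosomal protein genes stay between −0.11 and 0.36.

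Of 25 collagen genes 2 fell, Col8a1 (−0.88) and Col3a1 (−0.71), a share near the 7.22% of all genes tested that fell, or 9 with the letter as a block, and Col1a1 and Col1a2 each differed by −0.02 without a call. Of 40 other matrix genes 9 fell and 1 rose, or 18 fell with the block. Has2, which makes hyaluronan, went from 795.6, 999.9, 634.7 and 1250.7 to 162.5, 73, 139.8 and 121, so that it fell by 2.85 log2 (SE 0.252, adjusted p = 2.59e-08). Nid1 of the basement membrane (−1.5) and Mfap2 of microfibrils (−1.21) fell. Ptx3, a pentraxin gene, was the rise, by 1.17 log2, a call lost without 8 h array C or D or untreated array A, B or D. Among proteases and inhibitors Plau (−1.82), Timp3 (−1.31) and Mmp14 (−0.83) fell while Mmp11 rose by 0.78, a call lost without 8 h array B or untreated array D. In that list 5 of 26 fell, or 3 without 8 h array D and 13 with the letter as a block.

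DNA replication genes went both ways. Of 41 tested, 6 rose and 7 fell, beside 9.85% of all genes tested that rose and 7.22% that fell. The risen ones were 3 subunits of the origin recognition complex, Orc5 (1.07), Orc2 (0.93) and Orc4 (0.48), the loading factor Cdc6 (0.82), Cdc45 (0.84), and the polymerase delta subunit Pold2 (0.81). Orc5 went from 111.3, 99.5, 74.8 and 91.9 to 198, 242.3, 183.6 and 203.5, without overlap (SE 0.152, adjusted p = 2.41e-05). The fallen ones were Rpa1 (−0.73), Prim2 (−0.65), Mcm3 (−0.65), Rrm2 (−0.62), Rfc3 (−0.58), Pcna (−0.57) and Rrm1 (−0.57). The 6 rises were 3 without 8 h array D or without untreated array A, and the 7 falls were 4 without 8 h array A or without untreated array D and 13 with the letter as a block. Cell death genes gave 2 rises among 34, Birc2 (0.99) and Bid (0.82), a share below the 9.85% of all genes tested. The 5 falls, beside 7.22% of all genes, were Casp6 (−1.02), Bnip3 (−0.85), the survivin gene Birc5 (−0.84), Bok (−0.84) and Apaf1 (−0.58). In the NF-kB and cytokine list 6 of 35 rose and 5 fell, beside the same 9.85% and 7.22%, or 9 fell with the block. The adaptor gene Traf2 (1.0) and the subunit genes Nfkb2 (0.68) and Relb (0.67) rose. The inhibitor genes Nfkbia (−1.18) and Tnfaip3 (−1.39), Ptgs2 (−1.26) and the receptor gene Il1r1 (−1.47) fell.

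Between 4 h and 8 h of treatment, 116 genes rose (2.12%) and 115 fell (2.10%). The count of 231 was 110 without 8 h array D, 139 without 8 h array A, 136 without 4 h array C, 107 when only these 2 groups were fitted, 352 with array weights and 423 with the letter as a block. This comparison and the one with untreated cells share the 8 h arrays. Several ER genes still rose, as did Rabepk. Ero1b rose by 1.98 log2 from a mean of 102.7 ± 47 (SD, n = 4) at 4 h, Rabepk by 1.68, Creld2 by 1.5, Nucb2 by 1.13, Dnajc3 by 1.09 and Sel1l by 1.06. Edem2 rose by 0.92 and had 229 at 4 h against 182.7 to 236.7 in untreated arrays. Atf6 rose by 0.92 (adjusted p = 0.00188). For Herpud1 (0.06, adjusted p = 0.882), Ddit3 (0.27, adjusted p = 0.833), Gadd45a (0.12, adjusted p = 0.896), Ppp1r15a (0.28, adjusted p = 0.567) and Atf4 (−0.03, adjusted p = 0.953) no difference between 4 h and 8 h was called. Among the amino acid genes Wars (0.95) and Srm (0.85) rose between 4 h and 8 h.

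Growth and lipid genes were among the falls between 4 h and 8 h. Nr4a1 (−3.21 log2), Has2 (−2.46), Idi1 (−2.38), F3 (−1.97), Fst (−1.94), Errfi1 (−1.83) and Id1 (−1.83) fell. Fst had a mean of 569.7 ± 132 at 4 h, inside the range of its untreated arrays. Il6 had 780 ± 353 at 4 h and 177.5, 323.9, 111.8 and 37.9 at 8 h, so that it fell by 2.43 log2 (SE 0.505, adjusted p = 0.00625). Against untreated cells (385.8, 578.9, 254 and 215.3) its arrays overlapped, and the difference of −1.34 was not called (adjusted p = 0.0722) but was with the letter as a block (adjusted p = 0.00172). Tnfaip3, an inhibitor of NF-kB, fell by 1.77 log2. Of the immediate-early genes 13 of 37 fell from 4 h to 8 h, and of the TGF-beta, BMP and Wnt genes 9 of 41. In the cholesterol list 3 of 20 did, with Mvd rising by 0.97.

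**Figure D4:**
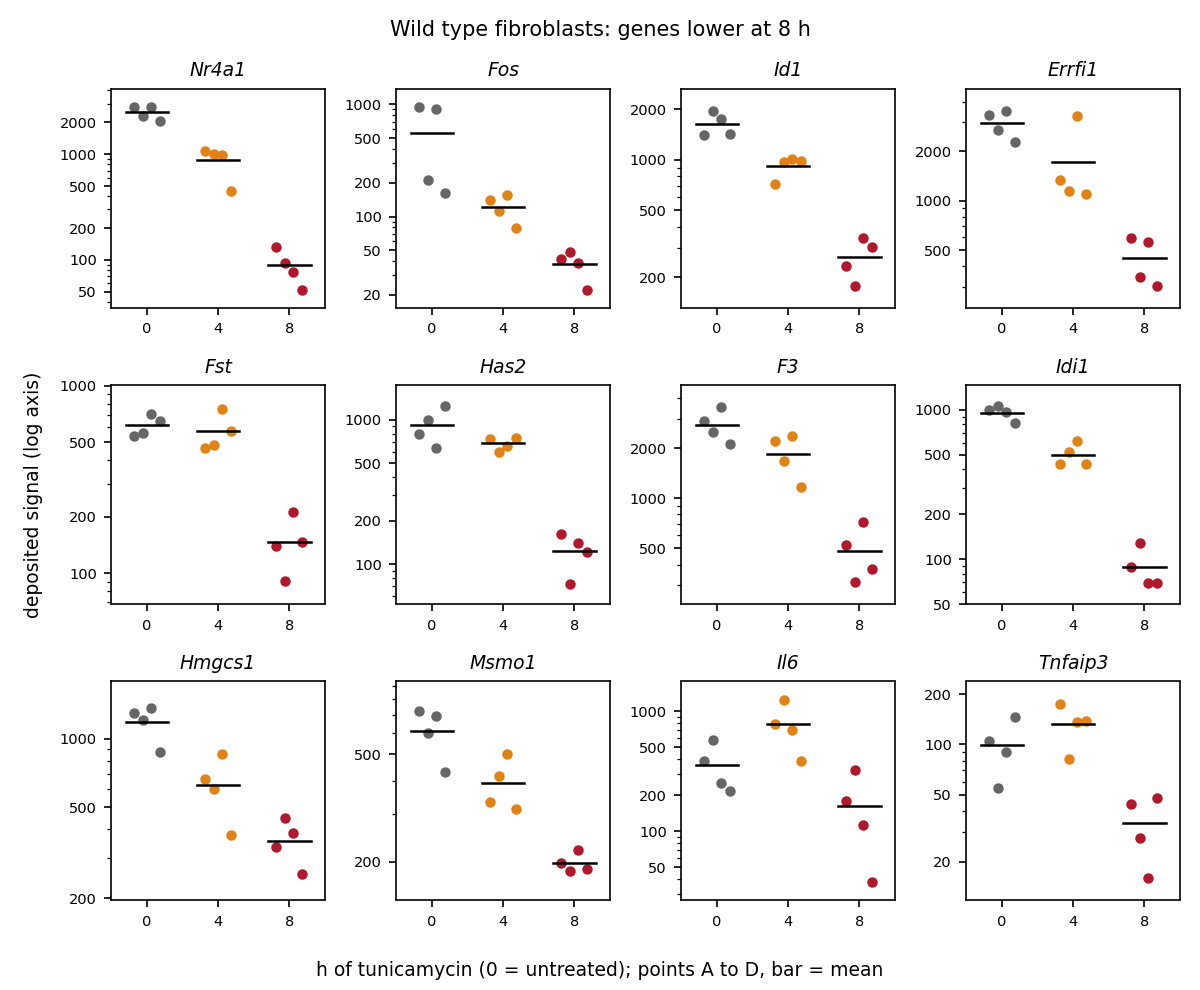
Deposited signal on a log axis of 12 genes lower at 8 h than at 4 h or untreated, with 4 wild type arrays per point in time (0 is untreated) and the mean as a bar. Fst had 569.7 at 4 h and fell after it, while Idi1 and Nr4a1 had lower means at 4 h already, and Il6 overlaps between untreated and 8 h.

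Further genes stood at both ends. Rabepk, which encodes a binding partner of the GTPase RAB9, had signals of 8.9, 10.3, 15.9 and 7.7 untreated and 382.7, 451.2, 540.5 and 374.3 at 8 h, and was at least 13-fold higher. Gadd45a, a growth arrest gene, went from 310.7, 292.4, 500.8 and 274.5 to 1878.6, 1792.1, 1722.2 and 2126, a rise of 2.46 log2. Nme6, a nucleoside diphosphate kinase gene, had 160.5, 159.3, 146.3 and 140.8 untreated and 541.1, 535.4, 507.9 and 540.5 at 8 h, with little spread in either group and a rise of 1.75 log2. Ets2 (2.07), a transcription factor, and Gch1 (1.79), which starts tetrahydrobiopterin synthesis, rose. Car6, a carbonic anhydrase gene, lay below the filter and was fitted with every probe set unfiltered. It went from 5.6, 2.7, 15.8 and 24.6 to 114.3, 83.9, 113.4 and 147.6, at least 3.41-fold higher (adjusted p = 4.57e-07). Nrep (−2.57), the actin-binding gene Synpo (−2.30) and the clock repressor gene Bhlhe40 (−2.03) fell. Usp2 and the repressor gene Prdm1 ended under 33.7 on all 8 h arrays, at least 2.68-fold and 2.40-fold lower. With every probe set of 1 symbol above the filter fitted singly, 1034 of 6500 were called (15.9%). Of 146 called genes with several such probe sets, 13 had probe sets of opposite sign, and Tubb3 had calls both ways (−0.41 and 0.74), with 0.17 as their mean.

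Whether the 8 h response differed without CHOP was tested by subtracting the wild type response from the CHOP-/- response. Only 2 of 5483 genes were called by limma (0.0365%). An unadjusted p under 0.05 was reached by 256, a share below the 1 in 20 that chance alone gives. The median SE of such a difference was 0.265 log2, against 0.187 for the wild type change. Ddit3, the deleted gene, had signals of 7.1, 12.4, 32.3 and 6.9 in untreated and 7.1, 39, 24.5 and 11.4 in 8 h CHOP-/- arrays, all below the wild type ones. Its response differed by −3.43 and was called in all 30 other settings tried. Vcam1, which encodes a leukocyte adhesion receptor, had 582.3, 698.7, 633.4 and 563.6 in untreated and 960.1, 1077, 971.5 and 784.7 in 8 h wild type arrays, a rise of 0.59 log2. In CHOP-/- cells it had 637.7, 725.2, 594.9 and 647.4 untreated and 457.2, 512.5, 564.1 and 454.6 at 8 h. The difference of −0.96 (SE 0.175, adjusted p = 0.0376) lost its call in 15 of 30 other settings, 12 of which left out 1 array, namely wild type untreated A, C or D, wild type 8 h A, B or C, or CHOP-/- A, B or D of either group. Its other probe sets at 8 h in wild type cells gave 0.40 and −0.06 log2 and were not called.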

How the data were processed

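Probe set signals on 24 oligonucleotide arrays were deposited by the authors as linear intensity values. From the values, each array's mean after removal of 2% at each end was 250.13 to 250.18, so arrays had been scaled to a common level. The signal software: not given in the sources used here. Probe sets were named through the array's gene table, and 10817 of 10833 with 1 symbol matched the RefSeq table. Probe sets with several symbols (396) or none were not used. The 20th percentile of signals, 5.7, served as pseudocount for log2, followed by quantile normalization, so that fold changes of low genes are understated. The probe set with the highest mean stood for its gene, and genes above the 40th percentile (signal 33.7, log2 5.30) were tested. A gene with all arrays of 1 group under 33.7 has a bound: the other group's mean signal over 33.7. limma 3.58.1 in R 4.3.3 fitted 6 group means over 24 arrays and an intensity trend, with 18 residual and 5.2 prior degrees of freedom, and p was adjusted by Benjamini-Hochberg within a contrast. The fit was checked on simulated arrays with independent noise. They held no shared deviation of same-letter arrays, so the check does not cover that feature of the real ones. For arrays, their number, 4 per group, limits the precision.

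Same-letter arrays of untreated and 8 h wild type cells had residual correlations of 0.427, 0.463, 0.622 and 0.490, all over 0.1. The highest with another letter were 0.32, 0.367, 0.147 and −0.067, so the letters pair these arrays. Between 4 h and 8 h, letter A had 0.258 against 0.411 with another letter, while B, C and D had 0.373, 0.615 and 0.617. In CHOP-/- cells, untreated against 8 h, same-letter values were 0.065, −0.097, −0.051 and 0.275. Each was below that with another letter, so the letters did not pair those arrays. At 8 h, CHOP-/- against wild type, same-letter values were 0.367, 0.419, 0.549 and 0.294. The highest with another letter were 0.016, 0.13, −0.068 and 0.077, so the letters paired the 8 h arrays across genotypes. For untreated arrays of both genotypes, same-letter values were 0.089, 0.116, −0.034 and −0.088, each below that with another letter. The labels do not say what a letter stands for. The pairing comes from the data alone.

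Lists and named genes followed written rules: a fixed set of ER stress genes, the 25 largest rises and falls without overlap, up to 6 called members per list with the smallest adjusted p and any against its direction, the 10 largest either way against 4 h, and up to 8 either way in the response difference. Other members are named from the lists after their values were seen, as group examples. Members and lists were chosen with earlier results of these data known. Promoter windows came from RefSeq (GRCm38.p6), used for 27025 genes. A gene counted if any of its windows matched. Alternatives were other scalings, pseudocounts, filters, probe set rules, fits and each array left out. Figures used Python 3.11.15 and matplotlib 3.10.9.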

Additional observations from a re-analysis of the deposited data

Results flagged for a closer look

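Among 506 groups of 4 arrays, 30 held an array whose gap to the nearest other, as a share of the group's range, passed Dixon's 95% critical value, where chance alone gives about 1 in 20. Gap shares are given in brackets. At 8 h, array A stood above the others of its group for Gmppb at 457.4 against 362.4 to 374.5 (0.859) and Ifi47 at 35.9 against 24.7 to 26.1 (0.856). The 8 h array B stood above the others of its group for Erp29 at 1682.1 against 1238.8 to 1282.1 (0.888) and Sdc1 at 195.1 against 130.4 to 139.6 (0.832). That array stood below the others of its group for Srp68 at 1547.6 against 1692.3 to 1710.3 (0.894), Srsf10 at 157.1 against 266.4 to 277.4 (0.928), Txnrd1 at 1736.8 against 2594.3 to 2711.4 (0.901), Uhrf1bp1 at 410.2 against 678 to 711.2 (0.913) and Vamp3 at 274.3 against 381.8 to 394.9 (0.907). The 8 h array C stood above the others of its group for S100a13 at 765.7 against 521.5 to 549.9 (0.862). It stood below the others of its group for Nme6 at 507.9 against 535.4 to 541.1 (0.833), Sel1l at 908.2 against 1094 to 1100.6 (0.969) and Sqstm1 at 3020.9 against 3921.3 to 3937.4 (0.985). The 8 h array D stood above the others of its group for Sec23b at 1587.4 against 1118.3 to 1169.5 (0.872). It stood below the others of its group for Rbm39 at 582.4 against 619.6 to 623.9 (0.899) and Rhob at 1141.6 against 1661 to 1757.6 (0.869). Untreated array A stood above the others of its group for Slc7a3 at 250.9 against 142.2 to 149 (0.918). Untreated array A stood below the others of its group for Atp1b3 at 2346.1 against 2858.8 to 2899.4 (0.933) and Invs at 76.8 against 105.2 to 108.1 (0.92). Untreated array B stood above the others of its group for Manf at 1555.6 against 1267.4 to 1287.3 (0.924). Untreated array B stood below the others of its group for Apaf1 at 194.1 against 211 to 211.4 (0.978) and Cdc45 at 91.3 against 112.6 to 117 (0.845). Untreated array C stood below the others of its group for Phkg2 at 72.2 against 107.9 to 113.6 (0.885). Untreated array D stood above the others of its group for Dnajb1 at 468 against 343.9 to 356.2 (0.886), Ero1a at 786.1 against 603.8 to 631.1 (0.833) and Mafk at 447.4 against 352.2 to 361.3 (0.894). Untreated array D stood below the others of its group for Ackr3 at 53.5 against 88.9 to 91.9 (0.938), Atp6v1e1 at 775.4 against 887.8 to 909.5 (0.849), Nfkbia at 423.6 against 750 to 831.2 (0.847) and Rhob at 2187 against 2738.3 to 2865.5 (0.832).

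The response to 8 h of tunicamycin differed between genotypes, by limma's test of the difference itself, for the deleted gene Ddit3 (−3.426 log2, adjusted p = 0.00243) and for Vcam1 (−0.962 log2, adjusted p = 0.0376), which rose on all 4 wild type arrays and lay lower on all 4 CHOP-/- arrays after treatment. The Vcam1 call was lost in 15 of 30 other settings, and the gene's other probe sets were not called in wild type cells.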

How the results depend on the processing

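The call count of 936 at 8 h against untreated became 1458 with array weights (670 of them lower) and, with the letter as replicate block over the 8 arrays, 1634 (847 higher, 787 lower). It ran from 714 to 815 with an array left out. Calls lower were 247 with each array centred on its median. Calls of at least 2-fold were 129 with a pseudocount of 50 and 155 with a filter at the 60th percentile. Against 4 h, 231 became 107 with only those groups fitted, 352 with array weights, 423 with the block, and 110 to 183 with an array left out. The response difference gave 1 call with each array centred, with the mean of all probe sets or with only its groups fitted, 6 with array weights, and 1 to 2 with an array left out. As a mean of all probe sets Nedd4 (0.033), Rbm39 (−0.059) and Tubb3 (0.167) turned sign. Beside the gains of Xbp1 and Il6 and the list counts given with the results, the block ended no call of a named gene. The median change of all genes was −0.016 log2 as reported and 0.03 under median centring. Groups of 4 arrays and dim probe sets limit what could be called, and genes under a signal of 33.7 have bounds only.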
